A study of Mus musculus with 18 samples.

Results

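Nucleotide excision repair genes were followed through 18 individual mouse 2-cell embryos, each hybridized to an array of its own. The 10 genes are Xpa, Xpc, Ercc1, Ercc2, Ercc3, Ercc4, Ercc5, Ercc6, Ddb1 and Ddb2, taken by their symbol in the platform annotation, out of 19935 genes that a probe set names alone. Each of them was read by exactly 1 probe set, so no choice between probe sets was needed and all 10 are described. The 9 Parg(110)-/+ embryos had 3 Parg(110)-/- fathers, called PargA, PargB and PargC, and carry 1 paternal Parg allele that lacks exons 2 and 3. The 9 WT embryos had 3 wild-type fathers, called WT1, WT2 and WT3. Every father gave 3 embryos, all mothers were wild-type, matings were natural, and all mice were of the 129SVE background (129S6/SvEvTac). An embryo is written as its father and a number, as in PargB-1. Parg encodes poly(ADP-ribose) glycohydrolase, which takes poly(ADP-ribose) off proteins. The mutant allele removes its long isoform and not the shorter ones, and the embryos keep a maternal copy of the gene. The genotype of an embryo goes with that of its father, so an effect of the sperm and an effect of the embryo's own allele cannot be told apart. An array reads the pooled RNA of an embryo's cells, in which cell number and RNA per cell cannot be told apart.

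Nucleotide excision repair removes lesions that distort the double helix, such as the photoproducts of ultraviolet light. In global repair, XPC and the DDB1-DDB2 complex find the lesion anywhere in the genome, and in transcription-coupled repair a stalled RNA polymerase calls in ERCC6 (CSB). Both routes pass the site to TFIIH, whose helicases ERCC2 (XPD) and ERCC3 (XPB) open the helix. XPA checks the lesion, the nucleases ERCC1-ERCC4 (XPF) and ERCC5 (XPG) cut on either side of it, and polymerases and ligases fill the gap. A 2-cell mouse embryo holds transcripts stored by the oocyte beside the first products of its own genome, and the question put to these genes was whether their transcript levels differed between embryos of Parg(110)-/- and wild-type fathers.

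The deposited values are RMA levels on a log2 scale, so a difference of 1 is a doubling, and they run over all probe sets and embryos between 2.97 and 13.7. The medians of single arrays lay between 6.44 and 6.53 in Parg(110)-/+ and between 6.34 and 6.49 in WT embryos. A probe set is called bright here when its mean over the 18 embryos is at or above the median of all probe set means, 6.47. Ddb1, Ddb2, Ercc6, Ercc3, Xpa and Ercc1 were bright, and Xpc, Ercc2, Ercc4 and Ercc5 were dim, a range in which RMA values are compressed and differences come out small. The labelled stage was checked on marker genes: 18 of 19 oocyte genes and 8 of 9 genes of the 2-cell stage were bright, against 2 of 11 of cumulus, granulosa and oviduct cells, 1 of 7 of blood cells and 4 of 11 of spermatids. PargB-1 and WT2-1 stood apart, with the lowest array weights of limma, 0.732 and 0.715, in a scale on which the other 16 lay between 0.817 and 1.29.

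Between the genotypes, none of the 10 genes passed the test, and 0% of all 28815 probe sets did (limma, Benjamini-Hochberg over all probe sets, call at an adjusted p under 0.1; the smallest over all probe sets was 0.354). At an unadjusted p under 0.05, 2 of the 10 genes had a lower mean in Parg(110)-/+ embryos, Ddb2 and Xpa, and 0 had a higher one. Over all probe sets 1.51% were lower and 10.5% differed in either direction at that level. The means of 7 of the 10 genes were lower in Parg(110)-/+ embryos, against 32.9% of all probe sets, and the median difference was -0.10 over the 10 genes and 0.05 over all probe sets. That median moved with single families: it was -0.0022 without the embryos of PargA, -0.059 without PargB, -0.23 without PargC, -0.021 without WT2 and -0.16 without WT3, and it lay between -0.15 and -0.036 with single embryos left out, nearest to 0 without PargA-1 (-0.036) and PargB-1 (-0.040). The background depended on array scaling: 9478 of 28815 probe sets were lower here, 14972 with arrays set to 1 median and 12728 after a second quantile normalization. At an unadjusted p under 0.05 (limma), 435, 969 and 591 were lower. Of the 10 genes 7 were lower under both rescalings, with medians of -0.16 and -0.11, beside -0.005 and 0.01 over all probe sets. The direction split by brightness: all 6 bright genes had the lower mean in Parg(110)-/+ embryos, with a median difference of -0.24 (41.4% of bright probe sets were lower, median 0.04), and 1 of the 4 dim genes did, with a median of 0.07 (24.4% of dim probe sets, median 0.06).

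**Figure D1:**
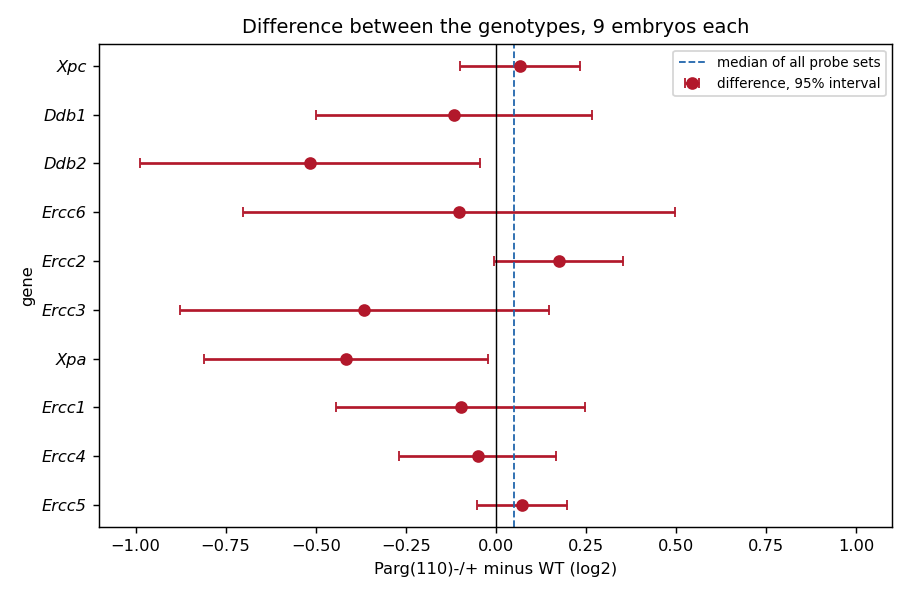
Parg(110)-/+ minus WT difference of the log2 level for the 10 genes, in the order of their roles. Points are limma estimates with 95% intervals from 9 Parg(110)-/+ and 9 WT embryos, and the dashed line is the median of all probe sets, 0.05. The intervals of Ddb2 and Xpa lie below 0, and the interval of Ercc2 just reaches it.

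Among the genes of damage recognition, Ddb2 had the largest difference of the 10. DDB2 (XPE) binds photoproducts directly and brings the CUL4-DDB1 ubiquitin ligase to them. Its log2 level was 8.12, 8.21 and 8.19 for the PargA embryos, 7.95, 8.78 and 7.41 for the PargB embryos, and 8.12, 7.90 and 7.96 for the PargC embryos. Among WT embryos it was 9.03, 9.64 and 8.88 in the WT1 family, 8.38, 8.41 and 7.89 in the WT2 family, and 8.99, 7.73 and 8.34 in the WT3 family. Of the Parg(110)-/+ embryos 8 of 9 lay below the WT mean and 1, PargB-3, below the lowest WT embryo, while 4 WT embryos lay above the highest Parg(110)-/+ embryo, PargB-2. The mean was 8.07 ± 0.36 in Parg(110)-/+ and 8.59 ± 0.60 in WT embryos (SD, n = 9 each), a difference of -0.52 ± 0.22 (SE, 95% interval -0.99 to -0.04, limma adjusted p = 0.451), or 0.699-fold. An exact permutation test over embryos (48620 assignments, two-sided, run for the 10 genes and not corrected) gave p = 0.0413. Without the 3 embryos of WT1 the difference was -0.22 (exact permutation p = 0.315), and without those of another father it lay between -0.70 and -0.48.

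WT1 stood high within the WT group. The family means of Ddb2 were 8.18 ± 0.05 for PargA, 8.05 ± 0.69 for PargB and 7.99 ± 0.11 for PargC, against 9.18 ± 0.40 for WT1, 8.23 ± 0.29 for WT2 and 8.35 ± 0.63 for WT3 (SD, n = 3 each). The 3 Parg(110)-/- fathers thus held the 3 lowest means, for which an exact permutation test over means per father gives p = 0.1, the smallest it can give with 20 assignments. The step to the next mean, that of WT2, was smaller than the SD within WT2. limma's F test over the 3 wild-type fathers gave an unadjusted p under 0.05 and an adjusted p of 1 for Ddb2, where 4.39% of all probe sets had an unadjusted p under 0.05. Over the 3 Parg(110)-/- fathers the adjusted p was 1.00.

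Ddb1, the adaptor that joins DDB2 to the CUL4 ligase and has many partners outside repair, did not share this pattern. Its log2 levels ran from 9.996 over a median of 11.18 to 11.61 in Parg(110)-/+ embryos and from 10.69 over 11.25 to 11.59 in WT embryos. The ranges overlapped but for PargB-2 at the low end and PargB-1 at the high end, both sired by PargB. The means were 11.10 ± 0.47 in Parg(110)-/+ and 11.22 ± 0.33 in WT embryos (SD, n = 9 each, difference -0.12 ± 0.18, SE, adjusted p = 0.824), and without PargB-2 the difference turned to 0.02. Ddb1 and Ddb2 correlated over the 18 embryos with r = -0.16 and rho = -0.05 (permutation p = 0.526 for r and 0.851 for rho, adjusted p = 0.819 and 0.916 over 45 pairs; r was -0.18 without PargB-2 and WT3-2, -0.72 within Parg(110)-/+ and 0.07 within WT embryos). Xpc, the sensor of helix distortion in global repair, was dim, at 5.95 to 6.58 (median 6.05) in Parg(110)-/+ embryos and 5.85 to 6.25 (median 6.08) in WT embryos. The difference was 0.07 ± 0.08 (SE, adjusted p = 0.760), with PargC-1 and PargB-2 above the highest WT embryo.

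Ercc6, the remodeling ATPase that starts transcription-coupled repair, had the widest range of the 10 genes over all embryos, 2.30 on the log2 scale. Its level was 6.69, 6.72 and 7.20 for the PargA embryos, 6.46, 7.04 and 7.70 for the PargB embryos, and 7.15, 7.86 and 7.96 for the PargC embryos. Among WT embryos it was 8.75, 6.57 and 6.98 in the WT1 family, 7.69, 7.77 and 6.89 in the WT2 family, and 6.86, 7.59 and 6.60 in the WT3 family. WT1-1 was the highest embryo and an embryo of the same father, WT1-2, the lowest WT embryo, and apart from WT1-1 and PargB-1, the lowest of all, the embryos of both groups lay between 6.57 and 7.96. The means were 7.20 ± 0.54 in Parg(110)-/+ and 7.30 ± 0.71 in WT embryos (SD, n = 9 each, difference -0.10 ± 0.29, SE, 95% interval -0.70 to 0.50, adjusted p = 0.908). The sign turned to 0.08 without WT1-1 and to 0.06 without the embryos of PargA. Over the families Ercc6 averaged 6.87 for PargA, 7.07 for PargB and 7.66 for PargC, and the F test of limma over these 3 fathers gave an adjusted p of 0.954, so the order was not beyond the spread between embryos.

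The TFIIH helicases differed in direction, and neither passed. Ercc3 (XPB) measured 8.38, 8.03 and 8.15 for the PargA embryos, 7.39, 8.91 and 9.13 for the PargB embryos, and 8.08, 8.90 and 8.85 for the PargC embryos. Among WT embryos it measured 8.87, 8.55 and 9.24 in the WT1 family, 8.73, 7.76 and 9.04 in the WT2 family, and 9.32, 8.35 and 9.26 in the WT3 family. Only PargB-1 lay below the lowest WT embryo, WT2-2, and 3 WT embryos lay above the highest Parg(110)-/+ embryo. The means were 8.43 ± 0.57 in Parg(110)-/+ and 8.79 ± 0.51 in WT embryos (SD, n = 9 each), a difference of -0.37 ± 0.24 (SE, adjusted p = 0.584). Ercc2 (XPD) was dim and had the largest difference upwards, 0.17 ± 0.08 (SE, limma adjusted p = 0.485, exact permutation p = 0.0587). It ran from 6.26 over a median of 6.54 to 6.84 in Parg(110)-/+ embryos and from 6.09 over 6.29 to 6.72 in WT embryos. In 7 of 9 Parg(110)-/+ embryos Ercc2 lay above the WT mean, and 4 WT embryos lay below the lowest Parg(110)-/+ embryo. Its family means were 6.54 for PargA, 6.50 for PargB and 6.46 for PargC, against 6.32 for WT1, 6.26 for WT2 and 6.39 for WT3, so that the 3 Parg(110)-/- fathers held the 3 highest (exact permutation p = 0.1 over means per father, the smallest possible). The Ercc2 difference shrank with array scaling. It was 0.12 (limma unadjusted p = 0.182) on arrays set to 1 median and 0.12 (limma unadjusted p = 0.178) after a second quantile normalization.

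Xpa, which holds the repair complex together at the opened helix and checks that a lesion is there, was the other gene with an unadjusted p under 0.05. Its log2 level was 8.42, 8.92 and 8.64 for the PargA embryos, 9.20, 8.69 and 9.81 for the PargB embryos, and 8.68, 9.58 and 9.23 for the PargC embryos. Among WT embryos it was 9.30, 8.92 and 9.47 in the WT1 family, 9.36, 9.18 and 9.90 in the WT2 family, and 9.62, 9.99 and 9.20 in the WT3 family. Of the Parg(110)-/+ embryos 4 lay below every WT embryo and 7 of 9 below the WT mean, and 2 WT embryos lay above all Parg(110)-/+ embryos. The mean was 9.02 ± 0.47 in Parg(110)-/+ and 9.44 ± 0.35 in WT embryos (SD, n = 9 each), a difference of -0.42 ± 0.19 (SE, 95% interval -0.81 to -0.02, limma adjusted p = 0.463), or 0.749-fold, with an exact permutation p of 0.0490 over embryos and 0.2 over means per father. By father the mean was 8.66 ± 0.25 for PargA, 9.24 ± 0.56 for PargB and 9.16 ± 0.46 for PargC, against 9.23 ± 0.29 for WT1, 9.48 ± 0.37 for WT2 and 9.60 ± 0.40 for WT3 (SD, n = 3 each). Without the embryos of PargA the difference was -0.24 (exact permutation p = 0.268), and without those of another father it lay between -0.52 and -0.33.

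The incision nucleases showed no difference between the genotypes beyond the spread of embryos. Ercc1, the partner that places ERCC4 on DNA, ran from 7.90 over a median of 8.84 to 9.20 in Parg(110)-/+ embryos and from 8.46 over 8.73 to 9.05 in WT embryos. PargA-1 (7.90) and PargB-1 (7.98) lay below all WT embryos while 6 of 9 Parg(110)-/+ embryos lay above the WT mean, and the SD was 0.46 in Parg(110)-/+ and 0.22 in WT embryos (n = 9 each, with no test of the difference in spread). The difference in means was -0.10 ± 0.16 (SE, adjusted p = 0.834). Ercc4 (XPF), the catalytic subunit, ran from 5.94 over a median of 6.12 to 6.31 in Parg(110)-/+ embryos and from 6.00 over 6.13 to 6.94 in WT embryos, where 8 of 9 lay at or below 6.19 and WT2-1 stood alone at 6.94. Its difference was -0.05 ± 0.10 (SE, adjusted p = 0.869) and turned to 0.04 without WT2-1. Ercc5 (XPG), which cuts on the other side, had the narrowest range, 0.48: it ran from 6.07 over a median of 6.12 to 6.38 in Parg(110)-/+ embryos and from 5.90 over 6.12 to 6.31 in WT embryos, with a difference of 0.07 ± 0.06 (SE, adjusted p = 0.657).

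**Figure D2:**
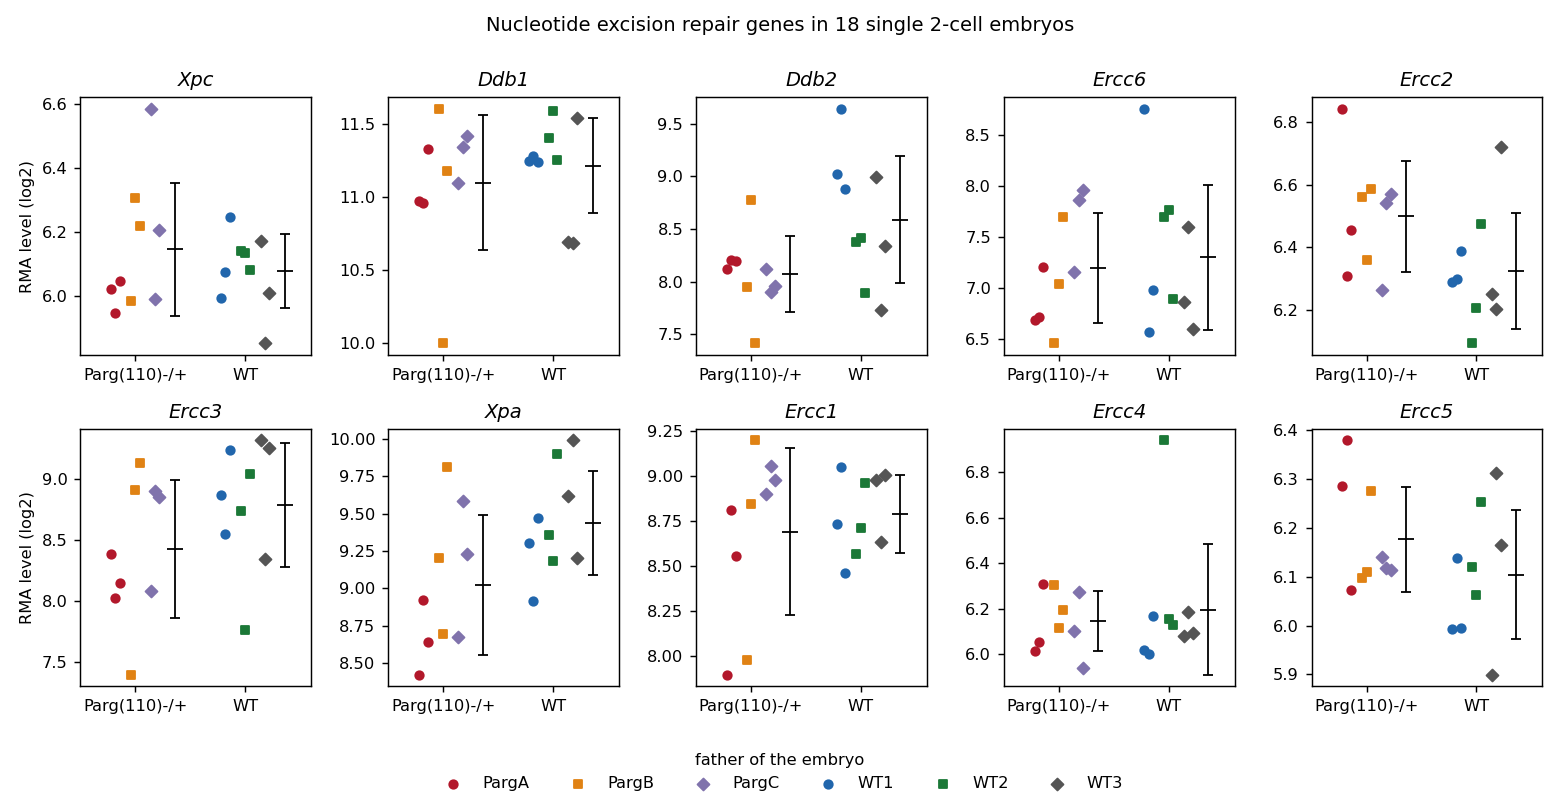
RMA level (log2) of the 10 genes in single 2-cell embryos, Parg(110)-/+ embryos left of WT embryos, coloured by father. Bars give mean ± SD of 9 embryos, and each panel has its own axis. The groups overlap for every gene, with 4 Parg(110)-/+ embryos below all WT embryos for Xpa, and 4 WT embryos above all Parg(110)-/+ embryos for Ddb2.

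The windows around the annotated starts of 3 genes are shown because the text turns on their values: Xpa and Ercc2 had the smallest p in the negative and the positive direction among genes with such a window, and Ercc4 was the only one of the 10 genes called in a single embryo with all WT embryos in the comparison. Each window runs from 250 bases before to 50 bases after the start in the RefSeq annotation of GRCm38.p6, written 5′ to 3′ on the strand of the gene, and comes from C57BL/6J and not from the strain of these mice. Windows of 7 of the 10 genes were used, and only these 7 count here as genes with a window. Xpc, Ddb2 and Ercc3 were not among them, and Ercc3 was left out by its chromosome, 18. Capitals mark matches on either strand to 6 short motifs: the GC box GGGCGG, the CCAAT box as CCAAT, the ETS core CCGGAAG, the TATA box TATAAA, the NRF1 core TGCGCA and the E2F core TTGGCGC.
Xpa, chr4:46196262-46196561, minus strand: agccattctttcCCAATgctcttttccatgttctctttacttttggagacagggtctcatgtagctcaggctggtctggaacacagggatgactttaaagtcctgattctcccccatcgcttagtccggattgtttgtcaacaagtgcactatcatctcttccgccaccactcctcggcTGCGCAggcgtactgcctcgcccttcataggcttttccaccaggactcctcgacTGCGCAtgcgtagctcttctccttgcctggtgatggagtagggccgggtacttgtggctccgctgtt
Ercc2, chr7:19381767-19382066, plus strand: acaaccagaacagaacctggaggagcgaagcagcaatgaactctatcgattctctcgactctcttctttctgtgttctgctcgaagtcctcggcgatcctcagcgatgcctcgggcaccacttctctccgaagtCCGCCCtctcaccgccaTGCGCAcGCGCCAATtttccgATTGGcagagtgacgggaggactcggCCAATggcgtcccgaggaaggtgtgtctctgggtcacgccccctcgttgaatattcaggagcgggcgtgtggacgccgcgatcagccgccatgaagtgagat
Ercc4, chr16:13109486-13109785, plus strand: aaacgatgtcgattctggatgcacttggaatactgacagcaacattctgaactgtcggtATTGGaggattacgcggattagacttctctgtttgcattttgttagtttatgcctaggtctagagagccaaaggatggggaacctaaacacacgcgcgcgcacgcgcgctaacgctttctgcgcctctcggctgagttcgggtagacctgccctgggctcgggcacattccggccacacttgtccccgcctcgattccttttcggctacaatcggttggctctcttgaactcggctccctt

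All 3 windows hold a CCAAT box. Ercc2 holds it 3 times, and 1 of these overlaps its match to the E2F core. Of the 7 windows, 4 hold the CCAAT box (Xpa, Ercc2, Ercc4 and Ercc5), as do 37.4% of 32851 windows of this length, and 4 hold the GC box (Ercc1, Ercc2, Ercc6 and Ddb1, 35.7% of windows). The NRF1 core is in 2 (Xpa, at 2 places, and Ercc2, 7.76% of windows), the ETS core in 1 (Ercc1, 8.86%), the E2F core in 1 (Ercc2, 2.45%) and the TATA box in 0 (13.6%). The number of CpG dinucleotides in the windows was 12 for Xpa, 13 for Ercc1, 21 for Ercc5, 22 for Ercc6 and for Ddb1, 23 for Ercc4 and 27 for Ercc2, against a median of 7 over all windows. The lowest of these numbers, that of Xpa, was above 60.4% of all windows, and the highest, that of Ercc2, above 84.5%. These matches are a description and were not tied to any measured level. In the same annotation Ercc1 and Ercc2 lie near each other on chromosome 7, with 2 genes starting between them. Ercc1 overlaps Cd3eap, Ercc2 overlaps Klc3 and the microRNA gene Mir343, Ddb2 overlaps Acp2, and Xpc overlaps Gm52912, a long noncoding RNA gene. How the probes of the array lie in these overlaps was not analysed here. The neighbours Ercc1 and Ercc2 correlated over the embryos with r = -0.21 and rho = 0.14 (permutation p = 0.407 for r and 0.569 for rho, adjusted p = 0.819 and 0.801 over 45 pairs; r was 0.53 without PargA-1 and PargB-1, -0.50 within Parg(110)-/+ and 0.48 within WT embryos).

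By family, each set of 3 embryos was compared with the same 9 WT embryos in 1 fit, so the comparisons share their control. None of the 10 genes was called in any family. Over all probe sets 0% were called for PargA, 0.0139% for PargB and 0.0104% for PargC. In the embryos of PargA, 1 of the 10 genes, Xpa, had an unadjusted p under 0.05, with a difference of -0.78 ± 0.25 (SE, limma adjusted p = 0.862); 1.14% of all probe sets were lower at that level. The Xpa difference was -0.20 ± 0.25 for PargB and -0.27 ± 0.25 for PargC. For Ddb2 the differences were -0.41 ± 0.33 for PargA, -0.54 ± 0.33 for PargB and -0.60 ± 0.33 for PargC, for Ercc3 -0.60 ± 0.35, -0.31 ± 0.35 and -0.18 ± 0.35, and for Ercc6 -0.43 ± 0.39, -0.23 ± 0.39 and 0.36 ± 0.39 (SE; the smallest adjusted p of these 4 genes was 0.514). The spread within a family was often as wide as that between families: the embryos of PargB had an SD of 0.95 for Ercc3, 0.83 for Ddb1 and 0.69 for Ddb2, and those of WT1 an SD of 1.16 for Ercc6 (n = 3 each). The F test over the fathers called none of the 10 genes in either genotype, with 0.0104% of probe sets called over the Parg(110)-/- fathers and 0.00347% over the wild-type fathers.

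Single embryos were then set against the WT embryos, on the assumption that the lone embryo varies as WT embryos do. In the 90 tests of 10 genes in 9 Parg(110)-/+ embryos, 0 were called (smallest adjusted p 0.154, limma) and 8 had an unadjusted p under 0.05, 6 of them lower. Over all probe sets 0.865% of the tests in these embryos were called and 7.22% had an unadjusted p under 0.05. In the 90 tests of each WT embryo against the other 8, 1 was called and 5 had an unadjusted p under 0.05, against 0.731% and 5.81% over all probe sets. These 8 tests in Parg(110)-/+ embryos were spread over 5 embryos. PargA-1 was low for Xpa (-1.02 ± 0.34) and Ercc1 (-0.89 ± 0.22) and high for Ercc2 (0.52 ± 0.19), and PargA-3 was low for Xpa (-0.80 ± 0.34; differences ± SE). PargB-1 was low for Ercc1 (-0.81 ± 0.22) and Ercc3 (-1.40 ± 0.50), PargB-2 for Ddb1 (-1.22 ± 0.32), and PargC-1 was high for Xpc (0.50 ± 0.13). With WT2-2 left out of the control, the difference of Ercc3 in PargB-1 was -1.53 ± 0.35 (SE). PargB-1 was 1 of the 2 embryos of lowest array weight (0.732), and the part of array quality in this value was not tested.

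The gene called in a WT embryo was Ercc4 in WT2-1, at 6.94 against 6.00 to 6.19 in the other 8 WT embryos and 5.94 to 6.31 in Parg(110)-/+ embryos. The difference from the other WT embryos was 0.84 ± 0.10 (SE, limma adjusted p = 0.00510), where 0.930% of all probe sets were called in the same embryo. WT2-1 also had the lowest array median, 6.34, and the lowest array weight; their part in the value was not tested, and the difference was also called when the arrays were set to 1 median or quantile normalized again. Of the other genes, Ercc6 in WT1-1 (1.64 ± 0.48), Ddb2 in WT1-2 (1.19 ± 0.47), Ercc2 in WT3-3 (0.44 ± 0.14) and Ercc3 in WT2-2 (-1.16 ± 0.35) had an unadjusted p under 0.05, 1 of these 4 lower (differences ± SE).

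**Figure D3:**
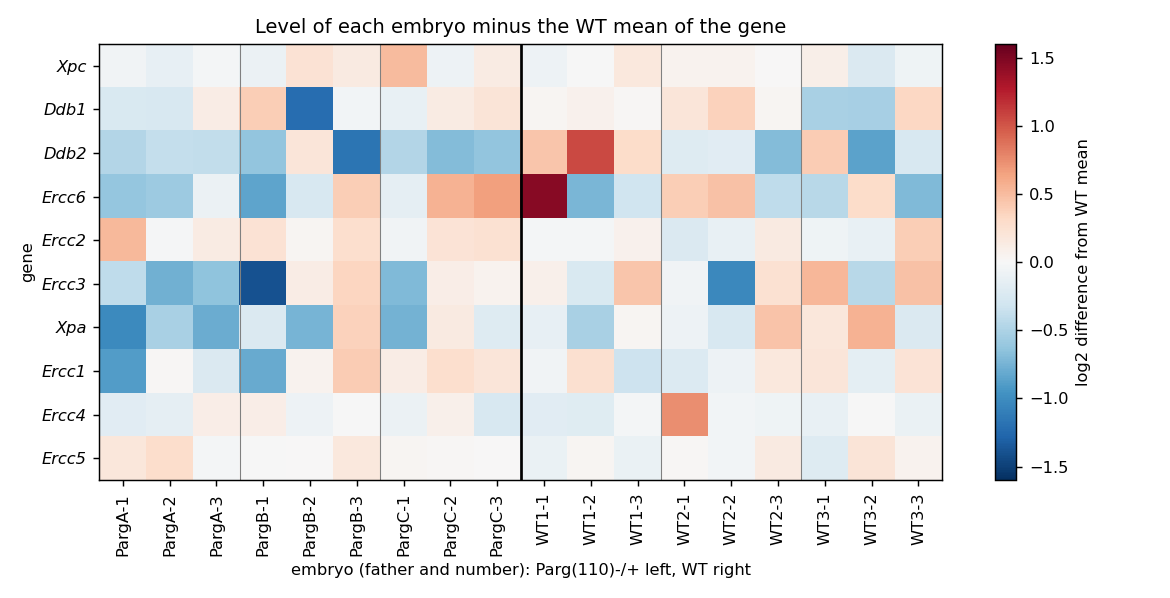
Log2 level of each embryo minus the WT mean of the gene, for 10 genes (rows) and 18 embryos (columns, Parg(110)-/+ left, WT right, thin lines between fathers). Single embryos carry the strongest colours: PargB-1 for Ercc3, PargB-2 for Ddb1, PargB-3 and WT1-2 for Ddb2, WT1-1 for Ercc6.

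Over all 18 embryos together, the 10 genes did not vary as a block. Over the 45 pairs, r across the 18 embryos ran from -0.57 to 0.53 with a median of -0.04, and 0 pairs passed (Benjamini-Hochberg over 45 pairs, smallest adjusted permutation p 0.522 for r and 0.665 for rho). Ercc1 and Ercc3 had the highest r, 0.53 (permutation p = 0.0232, adjusted p = 0.522; rho = 0.50, p = 0.0356, adjusted p = 0.675), with 0.67 within Parg(110)-/+ and 0.22 within WT embryos. It was 0.33 without PargA-1 and PargB-1, the 2 embryos farthest from the median of Ercc1, so it rests in part on the 2 embryos with low Ercc1. Ercc5 and Ddb2 had the lowest r, -0.57 (permutation p = 0.0129, adjusted p = 0.522; rho = -0.57, p = 0.0148, adjusted p = 0.665), with -0.21 within Parg(110)-/+ and -0.66 within WT embryos, and -0.58 without PargA-2 and WT3-1. Within a genotype 0 pairs passed either, but some values were far from those over all embryos. Xpa and Ddb2 had r = -0.29 over all embryos, -0.74 within Parg(110)-/+ and -0.71 within WT embryos. For Ercc6 with Ercc3 and with Ercc1, r was 0.78 and 0.78 within Parg(110)-/+ embryos. Within WT embryos it was -0.39 and -0.52.

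Each gene was also set against the mean of the oocyte list and of the 2-cell list, chosen to stand for stored and newly made transcripts, in 20 relations. PargB-1 and WT2-1, the arrays of lowest weight, had the highest scores on both lists. Their scores were 0.34 and 0.36 on the oocyte list and 1.16 and 0.84 on the 2-cell list. The scores thus do not cleanly separate the 2 kinds of transcript. Ercc3 ran against the oocyte list with r = -0.65 (permutation p = 0.00360, adjusted p = 0.072; rho = -0.71, p = 0.00159, adjusted p = 0.0318): embryos with a higher oocyte score had lower Ercc3 levels. The r was -0.90 within Parg(110)-/+ and -0.33 within WT embryos, -0.70 without PargB-1 and WT2-1, which had the highest oocyte scores, and -0.80 without WT2-1 alone. On arrays set to 1 median it was -0.49 (permutation, adjusted p = 0.392), and on arrays quantile normalized again -0.69 (adjusted p = 0.0288), so the call depends on how the arrays are scaled. Ercc4 ran with the oocyte list at r = 0.59 (permutation p = 0.00940, adjusted p = 0.0940), but its rho was 0.34 (p = 0.164, adjusted p = 0.393), r was 0.26 within Parg(110)-/+ and 0.88 within WT embryos, and it was 0.33 without WT2-1 and 0.09 without PargB-1 and WT2-1. That relation rests on WT2-1. Ercc1 with the oocyte list (r = -0.48, permutation p = 0.0430, adjusted p = 0.218; rho = -0.51, p = 0.0347, adjusted p = 0.235) and Ercc3 with the 2-cell list (r = -0.48, permutation p = 0.0436, adjusted p = 0.218; rho = -0.50, p = 0.0352, adjusted p = 0.235) did not pass.

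**Figure D4:**
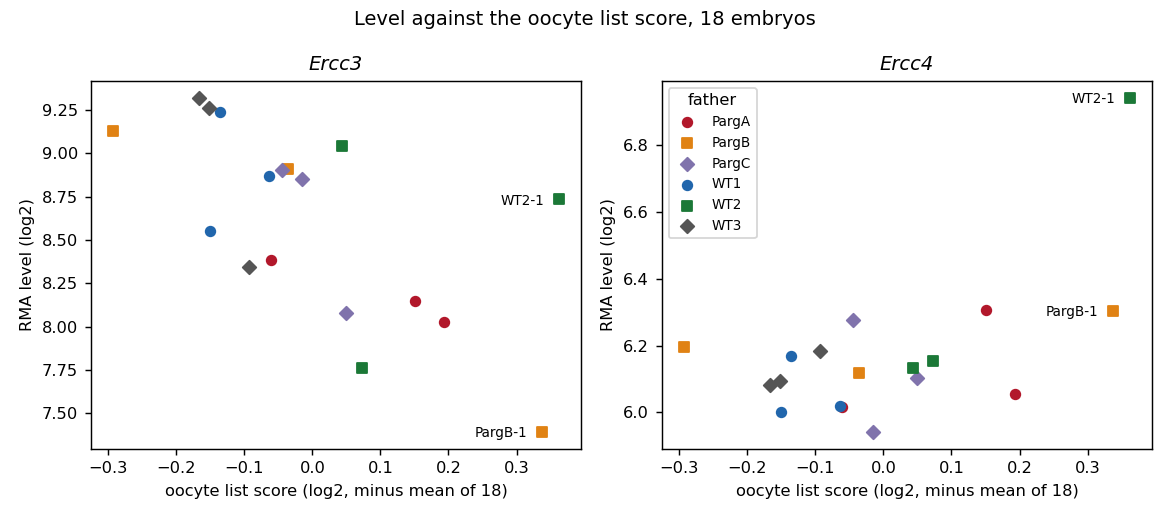
RMA level (log2) of Ercc3 (left) and Ercc4 (right) against the oocyte list score, the mean log2 level of 19 oocyte genes minus their mean over 18 embryos. Points are embryos coloured by father, PargA to PargC for Parg(110)-/+ and WT1 to WT3 for WT. Ercc3 falls along the score with r = -0.65 over 18 embryos, while the slope of Ercc4 hangs on WT2-1 at the top right.

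For the 3 genes of widest range, the genes with the most similar pattern over the 18 embryos were looked up among 10263 others that were bright. They were Tiam2 (r = 0.79) and S100pbp (0.78) for Ercc6, Xrn1 (0.76) and Cep164 (0.72) for Ddb2, and Dhx40 (0.84) and Mrps18c (0.84) for Ercc3. These were chosen as the highest of many and carry no test. By comparison, the highest r with another of the 10 genes was 0.31 for Ercc6, 0.20 for Ddb2 and 0.53 for Ercc3.

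The rest of the pathway was read from 4 lists, of which 40 of 42 genes were measured. Of these 0 were called, 0 were lower and 3 higher in Parg(110)-/+ embryos at an unadjusted p under 0.05 (all probe sets 1.51% lower, 10.5% in either direction). A lower mean was seen in 21 of 40, beside 32.9% of all and 41.4% of bright probe sets. The median difference was -0.005 beside 0.05 over all probe sets. Among the other genes of damage recognition, such as Rad23b, the partner of XPC, 2 of 6 were lower (median 0.01, 0 at p under 0.05). Of the other transcription-coupled genes 4 of 6 were lower (median -0.03), with Uvssa, which steadies ERCC6 at the stalled polymerase, at 6.65 ± 0.24 in Parg(110)-/+ and 6.38 ± 0.17 in WT embryos (SD, n = 9 each, difference 0.27 ± 0.10, SE, adjusted p = 0.381) and Hmgn1, a nucleosome-binding protein, at 8.47 ± 0.19 in Parg(110)-/+ and 8.28 ± 0.16 in WT embryos (difference 0.20 ± 0.08, adjusted p = 0.436). Of the other TFIIH subunits 5 of 7 were lower (median -0.12) and none had an unadjusted p under 0.05. Of the genes of gap filling and ligation 10 of 21 were lower (median 0.002), with Polk, a polymerase that can fill repair gaps, at 5.82 ± 0.10 in Parg(110)-/+ and 5.69 ± 0.10 in WT embryos (SD, n = 9 each, difference 0.13 ± 0.05, SE, adjusted p = 0.424).

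DDB1 also serves ubiquitin ligases with other substrate receptors, and 9 of 11 of these genes had a lower mean in Parg(110)-/+ embryos, with a median difference of -0.19. Of the 11 genes 10 were bright, and 41.4% of bright and 32.9% of all probe sets had a lower mean. This list, like the others, was chosen with earlier results of these data known. Dtl (CDT2), the receptor that removes licensing factors during replication, averaged 8.50 ± 0.65 in Parg(110)-/+ and 9.36 ± 0.79 in WT embryos (SD, n = 9 each, difference -0.85 ± 0.33, SE, limma adjusted p = 0.418). Wdtc1 averaged 9.74 ± 0.25 in Parg(110)-/+ and 10.07 ± 0.31 in WT embryos (difference -0.33 ± 0.13, adjusted p = 0.422). None of the 11 was called, and 2 were lower at an unadjusted p under 0.05, against 1.51% of all probe sets.

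Other repair pathways were counted for comparison. Over all probe sets 32.9% had a lower mean in Parg(110)-/+ embryos, and 41.4% of bright ones did. At an unadjusted p under 0.05 (limma) 1.51% were lower and 10.5% differed in either direction. The genes named below are those that reached this level. In base excision repair 7 of 17 genes had a lower mean in Parg(110)-/+ embryos (median 0.02), and 1 was lower and 1 higher at this level. Parp1, which makes poly(ADP-ribose) at strand breaks, differed by -0.51 ± 0.23 (SE, adjusted p = 0.465) and Neil1, a DNA glycosylase, by 0.11 ± 0.05 (adjusted p = 0.476). In double-strand break and Fanconi repair 22 of 33 were lower (median -0.03), with 2 lower and 1 higher at an unadjusted p under 0.05. Eme1, a nuclease partner of MUS81, differed by -0.86 ± 0.39, Fancc, of the Fanconi core complex, by -0.33 ± 0.14, and Xrcc3, which acts in homologous recombination, by 0.24 ± 0.11 (SE; adjusted p 0.463, 0.443 and 0.461). No gene of these lists was called. Among markers of other cell types, which were mostly dim, 11 of 11 spermatid, 7 of 7 blood and 9 of 11 cumulus, granulosa and oviduct genes had the higher mean in Parg(110)-/+ embryos, with medians of 0.10, 0.10 and 0.10, none called. This stands beside a lower mean in 32.9% of all and 24.4% of dim probe sets, with medians of 0.05 and 0.06. Their mean log2 level per embryo lay between 5.88 and 6.03 in Parg(110)-/+ and between 5.71 and 6.04 in WT embryos for spermatid genes. It lay between 6.00 and 6.24 in Parg(110)-/+ and between 5.81 and 6.18 in WT embryos for cumulus, granulosa and oviduct genes, and between 5.42 and 5.57 in Parg(110)-/+ and between 5.25 and 5.47 in WT embryos for blood genes. Their part in the values of the 10 genes was not tested.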

How the data were processed

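Each of the 18 embryos was read on 1 Affymetrix Mouse Gene 1.0 ST array after amplification of its cDNA. The authors deposited log2 values made with RMA in Partek Genomics Suite, that is, background-corrected, quantile normalized, log2 transformed and summarized per probe set. Tool versions are not given in the sources used here. RMA compresses dim probe sets, and quantile normalization can hide a change shared by most genes.

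Genes were named from probe sets to which the platform annotation gives 1 gene (21780 of 28815). Linear models were fitted to all probe sets with limma 3.58.1 in R 4.3.3 (lmFit and eBayes, two-sided, Benjamini-Hochberg over all 28815). A probe set was called below an adjusted p of 0.1, as in the study's methods. The fits were 9 Parg(110)-/+ against 9 WT embryos, each Parg(110)-/- father's 3 embryos against 9 WT embryos with 1 spread, each embryo against the WT embryos, and an F test over the 3 fathers of a genotype. The fits were also run on simulated data with independent normal noise and 1 spread per probe set. Such data lack the shifts of whole arrays and the outlying embryos seen here. They cannot show how the fits behave with those. Correlations over embryos used 100000 permutations of the embryos, two-sided, with Benjamini-Hochberg over 20 relations or 45 pairs. A list score is the mean over its genes of the log2 level minus the gene's mean over 18 embryos.

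The members and the gene lists were chosen with earlier results of these data known. Of 174 list genes 158 were named by a probe set of their own and the others were not analysed here. Named in the text are the 10 genes, every gene of the pathway lists with an unadjusted p under 0.05, and for the 3 genes of widest range the 2 genes of highest r. Rad23b was chosen as an example of its list after its value was seen. Fathers and embryos are separate animals per the labels, and embryos of 1 father were taken as independent in the main fits. The correlation within fathers estimated by limma was -0.023. The number of embryos limits the precision. Alternatives were the methods' plain one-way test, the father as a random block, means per father, arrays set to 1 median, a second quantile normalization, bright probe sets alone, array weights, and each embryo or father left out.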

Additional observations from a re-analysis of the deposited data

Results flagged for a closer look

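Of the 20 sets of 9 embryos (10 genes in 2 genotypes), 2 held an embryo that stood apart from the rest by Dixon's criterion, and chance marks about 1 in 20 such sets. Ercc4 measured 6.94 in WT2-1, with 6.19 as the next highest WT embryo, a gap of 0.804 of the WT range against a critical value of 0.493. Ddb1 measured 9.996 in PargB-2, with 10.96 as the next lowest Parg(110)-/+ embryo, a gap of 0.598 of the range. WT2-1 had the lowest array weight, 0.715, and PargB-2 a weight of 1.05, and the part of array quality in these values was not tested.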

How the results depend on the processing

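None of the 10 genes was called between the genotypes under any of 31 alternatives, and 299 of 306 differences kept their direction. Part of that count was fixed in advance. The random block, the means per father and the plain one-way test return the main difference itself, because every father gave 3 embryos. The fit on bright probe sets alone does so for the genes it keeps. Direction could not turn in these fits, and most of the other alternatives left out only 1 embryo or 1 father. Of the 10 genes, 2 had an unadjusted p under 0.05, Ddb2 and Xpa, both lower. With the father as a random block 3 had (Ercc2, higher, was added). On means per father 1 had, Ercc2, and neither Ddb2 nor Xpa did. After a second quantile normalization 1 had (Ddb2), with array weights 1 (Xpa), without the embryos of PargB, PargC, WT1 or WT2 1 each, and without those of PargA 0. Without those of WT3 2 had, Ddb2 and Ercc2, and Xpa did not. Leaving out single embryos gave 0 to 3 of the 10 genes. Over all 28815 probe sets 3018 had such a p in the main fit and 3291 with the father as a random block. On means per father 2205 had, after a second quantile normalization 1820 and with array weights 2864. The median difference of the 10 genes, -0.10, was -0.24 over bright probe sets alone, because 4 genes drop out, -0.23 without the embryos of PargC, -0.021 without WT2 and -0.0022 without PargA, and between -0.15 and -0.036 with single embryos left out. The sign turned for Ercc1 without the embryos of PargA (0.037), Ercc4 without WT2 (0.055) and Ercc6 without PargA (0.063). With single embryos left out, Ercc1 lay between -0.16 and 0.0008, Ercc4 between -0.076 and 0.042, Ercc6 between -0.20 and 0.080, and Ddb1 between -0.18 and 0.022. In single Parg(110)-/+ embryos 0 to 1 genes were called when 1 WT embryo was left out. Of the relations to the lists 2 passed. The relation that passed was not the same throughout. On arrays set to 1 median 1 passed, Ercc4 with the oocyte list (r = 0.67, permutation, adjusted p just under 0.1), and Ercc3 did not. After a second quantile normalization 1 passed, Ercc3 with the oocyte list (permutation, adjusted p = 0.0288), and Ercc4 did not (r = 0.56, adjusted p = 0.140). Within Parg(110)-/+ embryos and without the 2 farthest embryos 1 passed, and within WT embryos 0. The cause of these shifts was not tested. The mean of all probe sets naming a gene equals the main value, since each gene has 1. No paired analysis was possible because replicate numbers belong to different fathers in the 2 genotypes. With 9 embryos a group, the 95% interval of Ddb2 reaches from -0.99 to -0.04 on the log2 scale.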
